A study of Homo sapiens with 6 samples.

Results

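The genes described are 10 members of the folding machinery of the endoplasmic reticulum (ER) and of the stress pathway that controls it: HSPA5, HSP90B1, CALR, PDIA4, SDF2L1, DNAJB9, MANF, CRELD2, HERPUD1 and XBP1. They were taken as every probe set that the platform annotation gives to these 10 of the 19775 genes that have a probe set of their own on the array. The annotation gives them 19 probe sets alone, and 2 more that it assigns to both HSP90B1 and the microRNA gene MIR3652. RNA came from HSC-3, an established line of squamous carcinoma cells of the human tongue. Of 6 arrays, 3 carried RNA of cells labelled TAT-2, which were made to overexpress the protease trypsin-2, and 3 carried RNA of cells labelled vector, which received a control vector and are labelled as free of trypsin-2. Both groups were cultured for 48 h in the same serum-containing medium with hydrocortisone, detached with trypsin, washed and frozen. The labels do not say whether each line was a pool or 1 clone, nor that the replicates were grown separately. The p-values therefore speak of the spread among these arrays alone, which may be technical.

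The ER folds proteins that are to be secreted or placed in membranes. When unfolded proteins accumulate there, the unfolded protein response raises the ER's folding and degradation capacity through 3 branches, in which the sensors IRE1, ATF6 and PERK act. IRE1 splices the mRNA of XBP1 into the form that encodes an active transcription factor, and ATF6 is itself cleaved into one. A probe set signal sums whatever transcripts its probes bind, and no splicing of XBP1 was measured here.

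ATF6 and XBP1 are known to act through short promoter elements, so the promoters of the members are shown before their values. The RefSeq promoter table (build GRCh38.p14) held all 10 genes, and the 250 bases before each start were searched on both strands for 3 elements. These were the ER stress element ERSE (CCAAT and CCACG with 9 bases of any kind between them), ERSE-II (ATTGG and CCACG with 1 base between them) and the unfolded protein response element UPRE (TGACGTGG). All 3 hold CCACG on one strand, so matches could overlap, and none of those found in the members did. ERSE matched 5 of the 10 members, against 0.074% of 35116 promoters in the table. ERSE-II matched 2 others (0.0513% of promoters), and UPRE matched none (0.612%). The elements were first described on promoters of ER chaperone genes, so these counts are no independent evidence. HSP90B1 was the only gene in the table with 2 ERSE matches. No match was found before PDIA4, DNAJB9 or MANF. The matches with their flanks are printed 5' to 3' on the strand of the gene, with the fixed letters of the element in capitals.
HSPA5, chr9:125241376-125241424, minus strand: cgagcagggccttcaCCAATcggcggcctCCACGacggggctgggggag
HSP90B1, chr12:103930201-103930354, plus strand: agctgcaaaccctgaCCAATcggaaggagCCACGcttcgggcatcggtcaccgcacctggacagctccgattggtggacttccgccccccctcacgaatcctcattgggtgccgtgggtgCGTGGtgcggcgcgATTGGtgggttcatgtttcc
CALR, chr19:12938369-12938417, plus strand: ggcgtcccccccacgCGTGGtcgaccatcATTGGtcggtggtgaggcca
XBP1, chr22:28800588-28800636, minus strand: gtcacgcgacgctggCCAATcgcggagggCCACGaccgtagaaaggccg
CRELD2, chr22:49918539-49918587, plus strand: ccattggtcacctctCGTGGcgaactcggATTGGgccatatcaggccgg
SDF2L1, chr22:21642099-21642139, plus strand: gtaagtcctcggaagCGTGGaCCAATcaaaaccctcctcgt
HERPUD1, chr16:56932010-56932050, plus strand: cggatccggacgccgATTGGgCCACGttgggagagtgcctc
The match lay at positions -66 to -48 before the start of HSPA5, -52 to -34 before XBP1, -80 to -62 before CRELD2 and -225 to -207 before CALR. In HSP90B1 the matches lay at -194 to -176 and -89 to -71. The ERSE-II match lay at -188 to -178 in SDF2L1 and at -117 to -107 in HERPUD1.

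The labels themselves were checked first. The brighter probe set of PRSS2, the gene of trypsin-2, gave 20.4, 13.8 and 14.6 on TAT-2 replicates 1, 2 and 3 and 19.6, 80.8 and 83.2 on the vector arrays. The other PRSS2 probe set gave 19.9, 17.9 and 19.5 against 22.6, 38.0 and 54.5. On these probe sets the PRSS2 signal went against the labels in replicates 2 and 3 and differed little within replicate 1. The names of both end in _x_at, and such probe sets can read related sequences. On the TAT-2 arrays both lay near 15.2, the level of the filter on dim probe sets. The cause was not tested. Every direction given here is that of arrays labelled TAT-2 against arrays labelled vector. All 8 squamous epithelial markers that had a probe set of their own, of 12 listed, lay above the filter on dim probe sets, with summed signals of 23870 to 25770 on the TAT-2 arrays and 21880 to 28700 on the vector arrays. Among them the adhesion genes CDH1 and EPCAM were at log2 fold changes of -0.44 and -0.45. Both fell in limma with the replicate number as a block (adjusted p = 0.00826 and 0.0166). By group alone their adjusted p in limma was 0.527 and 0.642, and the EPCAM groups overlapped. The other markers of this list were called in neither fit and were split in sign. KRT5, DSC3, KRT14 and DSG3 were at 0.31, 0.25, 0.22 and 0.012, and ITGA6 and SFN at -0.15 and -0.024. Of 5 plasma cell markers, a cell type with high XBP1, SDC1 alone passed the filter, and SDC1 is also an epithelial gene. The fibroblast, leukocyte and endothelial lists had 3 of 8, 3 of 7 and 1 of 5 genes above the filter, with sums of at most 182 on any array and no gene called. The array medians lay between 14.8 and 17.6. The 28S ribosomal RNA control read 682 and 529.55 on the replicate 1 arrays, and 2030 to 2537 on the other 4.

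SDF2L1, XBP1 and CRELD2 were brighter on every TAT-2 array than on any vector array, by 1.77-, 1.36- and 1.31-fold (7.87% of all tested genes had such groups, higher on TAT-2). In bulk RNA, a change in the make-up of the cells and a change per cell cannot be told apart. The chaperones HSPA5, HSP90B1 and CALR differed by 1.09- to 1.16-fold on the brightest probe sets annotated to them alone, with overlapping groups. The 2 HSP90B1 probe sets shared with MIR3652 were brighter and differed by 1.051- and 1.055-fold. All 10 genes had a positive log2 fold change on the brightest probe set, where 49.5% of all 12151 tested genes did. Their median was 0.17, against -0.0025 over all genes (log2(signal + 16) scale, as all log2 values and folds here). Within replicates 1, 2 and 3 it was 0.20, 0.18 and 0.31, with 7, 10 and 9 of the 10 genes higher on the TAT-2 array of the same number.

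No member passed the threshold in the comparison of the groups. Of the 19 probe sets 17 were tested, and limma called 0 of these 17 at an adjusted p of 0.05 (0.0293% of 27307 tested probe sets were called, 8 in all). At an unadjusted p under 0.05 there were 4 of 17, against 7.86% of all. With the replicate number as a block, which takes out what arrays of one number share, limma called 5 of the 17 and all 5 were higher (2.55% of all tested probe sets were called higher and 5.21% in either direction). These were the probe sets of SDF2L1, XBP1, CRELD2 and MANF and one of 3 for CALR. Without the intensity trend of the variance the blocked limma fit called 0 members, as it called 0 of all probe sets, with 5 members and 4260 of all probe sets at an unadjusted p under 0.05. With replicate 1 left out of both groups the blocked fit with the trend called 3 member probe sets (795 of all 27307 were called). With replicate 2 left out it called 2 (659 of all), and with replicate 3 left out 4 (1393 of all).

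**Figure D1:**
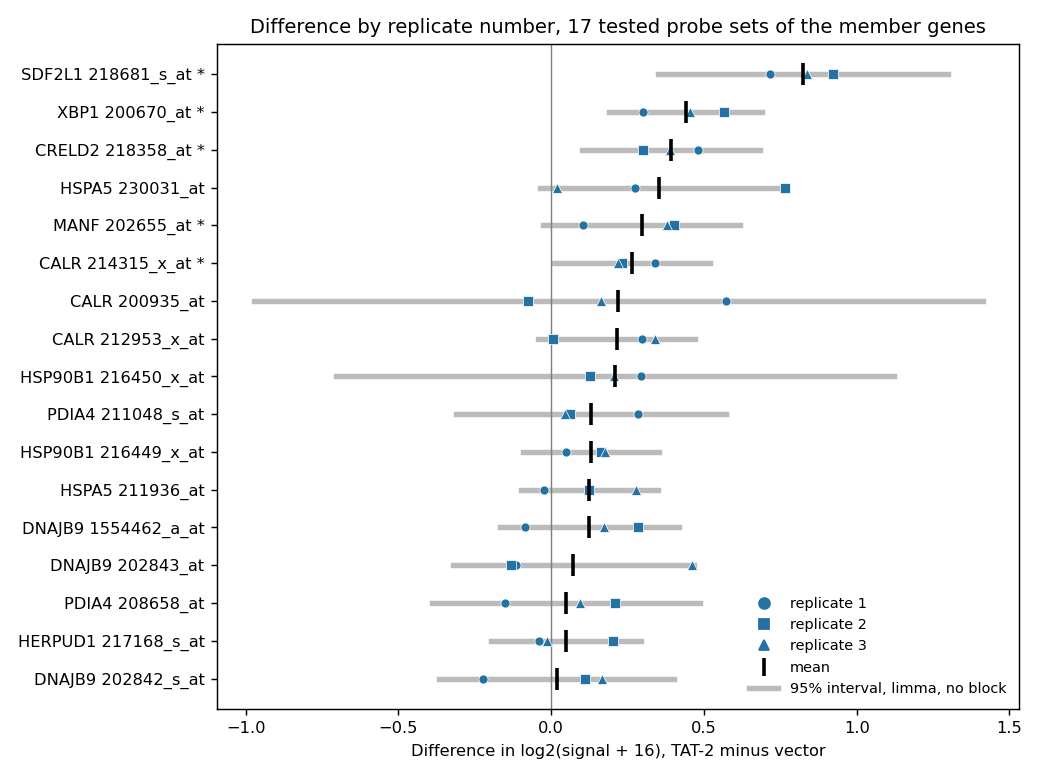
Difference in log2(signal + 16) between the TAT-2 and the vector array of each replicate number (symbols), their mean (black bar) and the 95% interval of limma without the block (grey), for the 17 tested probe sets of the member genes. An asterisk marks the 5 probe sets called with the replicate block; all 17 means lie above 0, and the interval lies wholly above 0 for SDF2L1, XBP1, CRELD2 and, narrowly, the starred CALR probe set.

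In 10 of the 17 probe sets the TAT-2 array was the brighter one in all 3 replicate numbers, against 18.6% of all tested probe sets. In none was it the dimmer one in all 3 (20.5% of all). The groups did not overlap in 4, each with TAT-2 higher, where 6.73% of all tested probe sets did so in that direction. The members were chosen with results of these arrays known, so these counts describe them and are no independent support.

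XBP1 is the transcription factor of the IRE1 branch and raises genes of ER folding, translocation and degradation. Its probe set gave signals of 759, 827 and 904 on TAT-2 replicates 1, 2 and 3 and 612.5, 554 and 656 on the vector replicates. Every TAT-2 array was above every vector array. The group means of 830.0 ± 72.7 and 607 ± 51.4 (SD, n = 3 each) corresponded to a log2 fold change of 0.44 ± 0.11 (SE). The adjusted p in limma was 0.268 by group alone and 0.00551 with the block. The difference was 0.30, 0.57 and 0.45 in replicates 1, 2 and 3. A further XBP1 probe set was dim, with group means of 6.90 and 6.22, below the filter level of 15.2, and was not tested.

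SDF2L1 is a soluble partner of HSPA5 and of ER J proteins in the chaperone cycle. It gave 429.5, 689 and 676 on TAT-2 replicates 1 to 3 and 255, 356 and 371 on the vector replicates. In both groups replicate 1 was the dimmest array, and the TAT-2 array was the brighter one in each number, by 0.72, 0.92 and 0.84 on the log2 scale. With means of 598 ± 146 and 327.5 ± 62.9 (SD, n = 3 each), the log2 fold change was 0.82 ± 0.21 (SE). The adjusted p in limma was 0.28 by group alone and 0.000204 with the block. SDF2L1 was also the one member called without the block once replicate 1 was left out of both groups (log2 0.88, adjusted p = 0.00362 in limma). Its log2 fold change was the largest among the 10 genes.

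DNAJB9, an ER J protein that guides HSPA5 to its clients and to IRE1, had the smallest log2 fold change of the 10 on its brightest probe set. That probe set gave 117, 170.4 and 180.1 on the TAT-2 arrays and 139, 157 and 159 on the vector arrays. The TAT-2 array was the dimmer one in replicate 1 and the brighter one in replicates 2 and 3, and the groups overlapped. Its log2 fold change was 0.018 ± 0.17 (SE), with a 95% interval of -0.37 to 0.40. The further DNAJB9 probe sets were at 0.12 ± 0.13 and 0.072 ± 0.17 (SE), and limma called none of the 3 with the block either.

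HSPA5, known as BiP, is the main Hsp70 chaperone of the ER and holds the stress sensors inactive. Its brighter probe set gave 3974, 4865 and 4940 on TAT-2 replicates 1 to 3 and 4043, 4464 and 4075 on the vector replicates. The 2 brightest arrays were TAT-2 replicates 2 and 3, while TAT-2 replicate 1 was the dimmest of all 6. The log2 fold change was 0.13 ± 0.10 (SE), with a 95% interval of -0.10 to 0.35 and an adjusted p in limma of 0.884 (0.416 with the block). It was 0.23 without TAT-2 replicate 1, 0.080 without TAT-2 replicate 2 and 0.069 without TAT-2 replicate 3. The dimmer HSPA5 probe set gave 102, 143 and 92.5 on the TAT-2 arrays and 81.8, 77.5 and 91.0 on the vector arrays. Its groups did not overlap, by a narrow margin, and replicate 2 carried most of the difference, at 0.77 against 0.27 and 0.020 in replicates 1 and 3. This probe set was at 0.35 ± 0.17 (SE), with an adjusted p in limma of 0.687, and 0.21 with the block.

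HSP90B1, known as GRP94, is the Hsp90 chaperone of the ER and folds integrins and Toll-like receptors. Its brighter own probe set gave 1232, 1455 and 1445 on TAT-2 replicates 1 to 3 and 1190, 1296 and 1276 on the vector replicates. Both replicate 1 arrays were below the other 4, and within each number the TAT-2 array was the brighter one, by 0.049, 0.16 and 0.18 on the log2 scale. The log2 fold change was 0.13 ± 0.10 (SE), with a 95% interval of -0.091 to 0.35 and an adjusted p in limma of 0.869 (0.311 with the block). Without TAT-2 replicate 1 it was 0.21. The 2 probe sets assigned to both HSP90B1 and MIR3652 were brighter than its own. Their TAT-2 and vector means were 1558 and 1480 on one and 3635 and 3455 on the other. Their log2 fold changes were 0.072 and 0.077, each slightly below 0 in replicate 1, and neither was called.

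CALR, calreticulin, is the soluble lectin chaperone that binds glucose-trimmed glycoproteins together with calcium. The CALR probe set called with the block gave 1002, 920.2 and 1095 on TAT-2 replicates 1 to 3 and 788, 780.5 and 939.7 on the vector replicates. The groups overlapped, since TAT-2 replicate 2 lay below vector replicate 3, but the TAT-2 array was the brighter one in each number by 0.22 to 0.34. The log2 fold change was 0.26 ± 0.11 (SE), with an adjusted p in limma of 0.618, and 0.0393 with the block. With replicate 1 as a batch factor in place of the block the adjusted p was 0.131. The brightest CALR probe set gave 0.21 ± 0.11 (SE) and was not called with the block (adjusted p = 0.147 in limma). Its log2 fold change was 0.12 without TAT-2 replicate 3. The names of both end in _x_at, as do those of both HSP90B1 probe sets, and such probe sets can read related sequences.

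PDIA4, a protein disulfide isomerase of the ER, had a log2 fold change of 0.13 ± 0.19 (SE) on its brighter probe set and 0.050 ± 0.19 on the dimmer one. The brighter gave 359, 240.6 and 222 on TAT-2 replicates 1 to 3 and 292, 230.2 and 215 on the vector replicates. Its groups overlapped, and replicate 1 was the brightest array in both. The 95% interval ran from -0.31 to 0.57, and limma called neither probe set with the block.

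**Figure D2:**
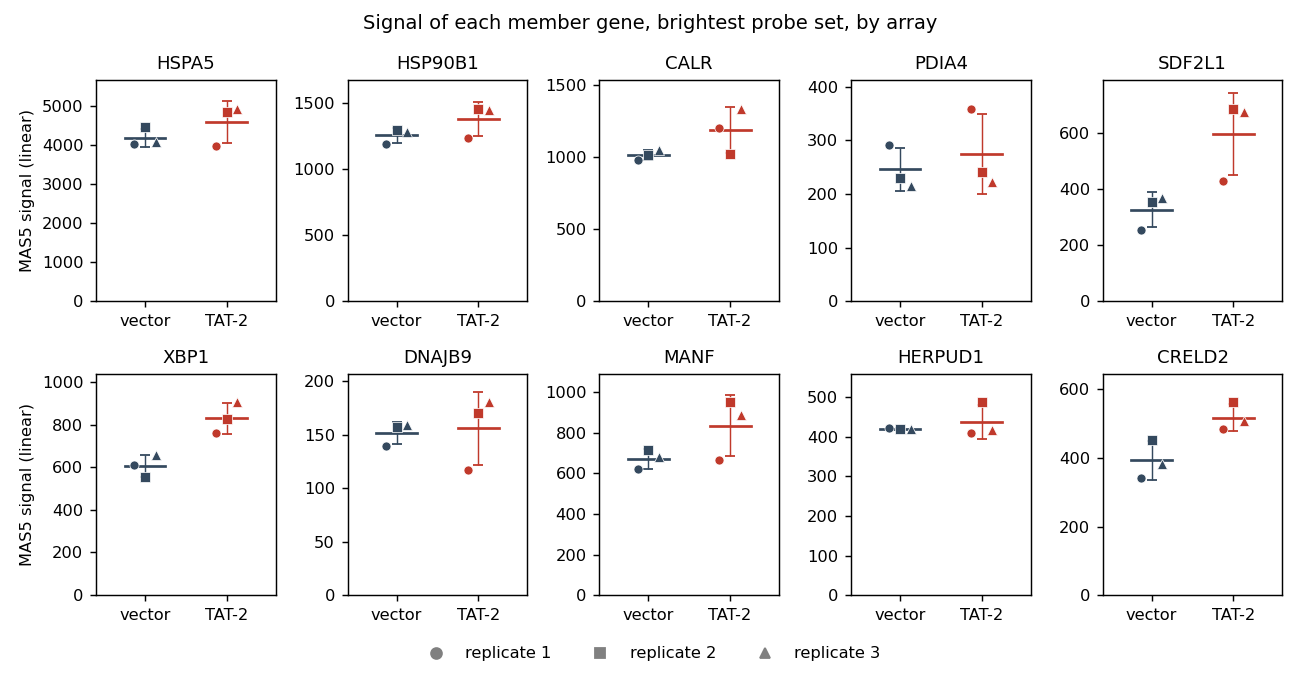
MAS5 signal (linear axis from 0) of the brightest probe set annotated to each member gene alone, on the 3 vector and 3 TAT-2 arrays. Group mean and SD are drawn, and symbols mark the replicate number. SDF2L1, XBP1 and CRELD2 show no overlap between the groups, while HSPA5, HSP90B1, MANF, DNAJB9, PDIA4, HERPUD1 and CALR do overlap.

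MANF is a small ER protein that binds HSPA5 and is secreted under stress. It gave 667, 949 and 889 on TAT-2 replicates 1 to 3 and 619, 715 and 679 on the vector replicates. TAT-2 replicates 2 and 3 were above all other arrays, while TAT-2 replicate 1 lay among the vector arrays. Group means were 835 ± 149 and 671 ± 48.6 (SD, n = 3 each). The log2 fold change of 0.30 ± 0.14 (SE) had an adjusted p in limma of 0.682, or 0.0463 with the block. With replicate 1 as a batch factor the adjusted p was 0.0534. Without TAT-2 replicate 1 the log2 fold change of MANF was 0.45, and without TAT-2 replicate 2 it was 0.20.

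CRELD2, a secreted ER protein with disulfide isomerase activity, gave 485, 562 and 507.5 on TAT-2 replicates 1 to 3 and 343, 453 and 383.5 on the vector replicates. Every TAT-2 array was above every vector array. Between group means of 518 ± 39.75 and 393 ± 55.8 (SD, n = 3 each) the log2 fold change was 0.39 ± 0.13 (SE). Its adjusted p in limma was 0.463 by group alone and 0.0101 with the block. The difference was 0.48, 0.30 and 0.39 in replicates 1, 2 and 3.

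HERPUD1, an ER membrane protein that helps hand misfolded proteins to the proteasome, gave 409, 487 and 416 on TAT-2 replicates 1 to 3 and 421 on each vector replicate. Only TAT-2 replicate 2 stood above the vector arrays, and the other 2 lay below them. The log2 fold change was 0.049 ± 0.11 (SE), with a 95% interval of -0.20 to 0.29 and an adjusted p in limma of 0.977 (0.806 with the block). Its other probe set, with signals of 1.58 to 4.34, was below the filter. HERPUD1 and SDF2L1, the 2 members with an ERSE-II match, thus stood near the lower and at the upper end of the log2 fold changes, and members with an ERSE match ran from 0.13 to 0.44.

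Several probe sets of these genes parted replicate 1 from replicates 2 and 3 more widely than TAT-2 from vector. Over the 17 tested, both replicate 1 arrays lay above the other 4 in 2 (20.35% of all tested probe sets did so) and below them in 6 (17.4% of all). One CALR probe set averaged 292 on the replicate 1 arrays and 87.7 on the other 4, whereas its 2 other probe sets averaged 1091 against 1106 and 895 against 934. The 2 probe sets of PDIA4 went opposite ways, at 325 against 227 and 124 against 175. The dimmer HSP90B1 probe set gave 56.5 against 146.5. These splits run with the lower 28S signal of the replicate 1 arrays and with the smaller excess of the 3' over the 5' ACTB probe set there (log2 0.21 and 0.25, against 0.46 to 0.59 on the other arrays). The GAPDH control went the other way, at log2 0.032 and 0.090 on the replicate 1 arrays and -0.0050 to 0.021 on the others. The part of these differences in the results was not tested. The labels do not say what sets replicate 1 apart.

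**Figure D3:**
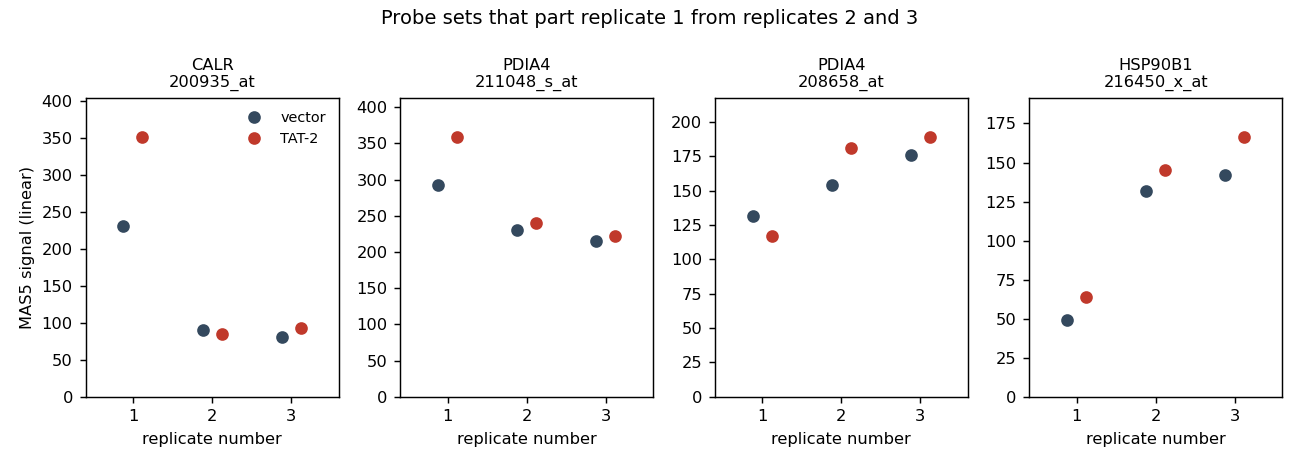
MAS5 signal (linear axis from 0) by replicate number of 4 probe sets of CALR, PDIA4 and HSP90B1 on the vector and TAT-2 arrays. The CALR probe set and the first PDIA4 probe set are highest on both replicate 1 arrays, and the second PDIA4 and the HSP90B1 probe sets are lowest there.

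The other genes of the pathway were 110 in 7 lists, of which 101 were tested. By group alone limma called 0 of the 101 (0.0576% of all genes were called). An unadjusted p under 0.05 was found for 9 of them, against 9.38% of all genes. With the block it called 8, of which 2 were higher and 6 lower (6.96% of all genes were called, 3.5% higher and 3.46% lower). Of 20 other ER folding factors, among them the partners HYOU1, PDIA6 and DNAJB11, none was called higher and FKBP11, a prolyl isomerase, fell with the block (log2 -0.56 ± 0.17, SE, without the block, and a block adjusted p in limma of 0.0332). Its difference was -0.083, -0.68 and -0.92 in replicates 1, 2 and 3, and the signs of its 2 further tested probe sets were split. The list's median was 0.066, and 13 of the 20 were above 0. ERSE matched the promoters of 4 of the 20 found in the table, PDIA6, CANX, SERP1 and ERO1B, and of no gene in the 6 further lists.

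Among 14 genes of the glycoprotein folding cycle, GANAB, the catalytic subunit of glucosidase II, rose with the block (0.39 ± 0.17, SE), and DDOST, an oligosaccharyltransferase subunit, fell (-0.33 ± 0.10). The list's median was -0.062. None of 15 genes of ER-associated degradation was called by limma in either fit, 0 had an unadjusted p under 0.05, and the list had a median of 0.10. Of these, UBXN4 was at -0.22 ± 0.10 and SEL1L, the adaptor of the HRD1 ubiquitin ligase, at 0.21 ± 0.12 (SE). The 2 further tested probe sets of SEL1L were at -0.21 and 0.053. Of the 8 tested stress sensors and their proteases limma called none either, and 0 had an unadjusted p under 0.05, around a median of 0.064. ATF6B was at 0.42 ± 0.19 and MBTPS2, the site-2 protease that cuts ATF6, at -0.22 ± 0.14 (SE), and the further tested probe sets of both pointed the other way.

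In the PERK, ATF4 and CHOP branch 3 of 12 genes fell and none rose with the block. ASNS, asparagine synthetase, was at -0.72 ± 0.12 (SE; means of 147 ± 14.6 and 252 ± 10.3, SD, n = 3 each), TRIB3, a pseudokinase, at -0.52 ± 0.11 and PSAT1, of serine synthesis, at -0.39 ± 0.16. The branch's median was -0.081. Of 19 genes of the translocon, signal peptidase and ER export, SEC23B, a COPII coat subunit, fell with the block (-0.47 ± 0.14), with a list median of 0.027. Of 16 cytosolic and mitochondrial chaperones and their partners, 13 were tested. HSPA1A, HSPA1B and HSPA8 had no probe set of their own and were not among them. Of the 13, BAG3, a co-chaperone of Hsp70, rose with the block (0.41 ± 0.13, SE), with a list median of 0.012.

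**Figure D4:**
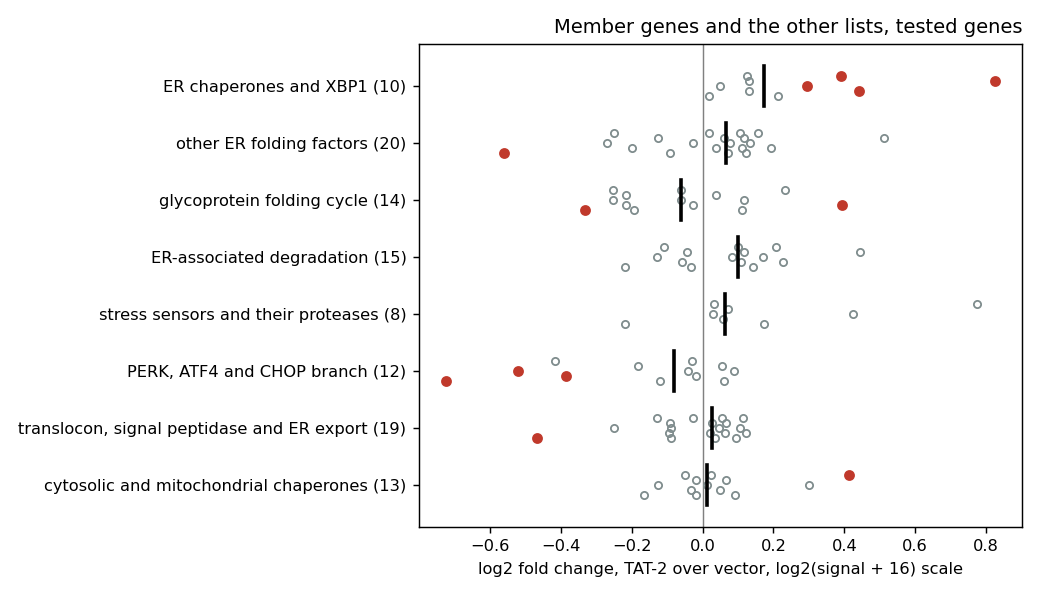
Log2 fold change of TAT-2 over vector (log2(signal + 16) scale) for the 10 member genes and the tested genes of 7 other lists, 1 point per gene by its brightest probe set; filled red points were called with the replicate block and the bar is the list median. The member median is 0.17, and the other medians lie between -0.081 and 0.10.

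SDF2L1, XBP1 and CRELD2, the 3 genes of largest log2 fold change, are all on chromosome 22. The 10 nearest tested genes of XBP1, 5 on either side, were all higher on the TAT-2 arrays, with a median of 0.32 and a range of 0.14 to 0.98. With the block 5 of the 10 were called. Over all tested genes 49.5% were higher on TAT-2 and 6.96% were called with the block in either direction. XBP1, at 0.44, lay inside that range, and KREMEN1, a receptor of Wnt signalling located 2 places away, was at 0.98. Around SDF2L1 6 of the 10 were higher, with a median of 0.21 and 3 called with the block, and the highest of them, PPIL2, was at 0.51 against 0.82 for SDF2L1. The genes next to SDF2L1 in order, HIC2 and YDJC on one side and PPIL2, PPM1F and TOP3B on the other, ran from 0.33 to 0.51. Beyond them BMS1P20 was at 0.093, and P2RX6, SLC7A4, FAM230B and IGLJ3 ran from -0.35 to -0.21. Around CRELD2 4 of the 10 were higher, with a median of -0.013, a highest value of 0.35 and 0 called with the block. The part of the neighbourhood in the values of XBP1 and SDF2L1 was not tested. Around the 7 other members, on 6 other chromosomes, the median of the 10 neighbours lay between -0.069 and 0.045. Of each 10, 0 or 1 was called with the block.

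**Figure D5:**
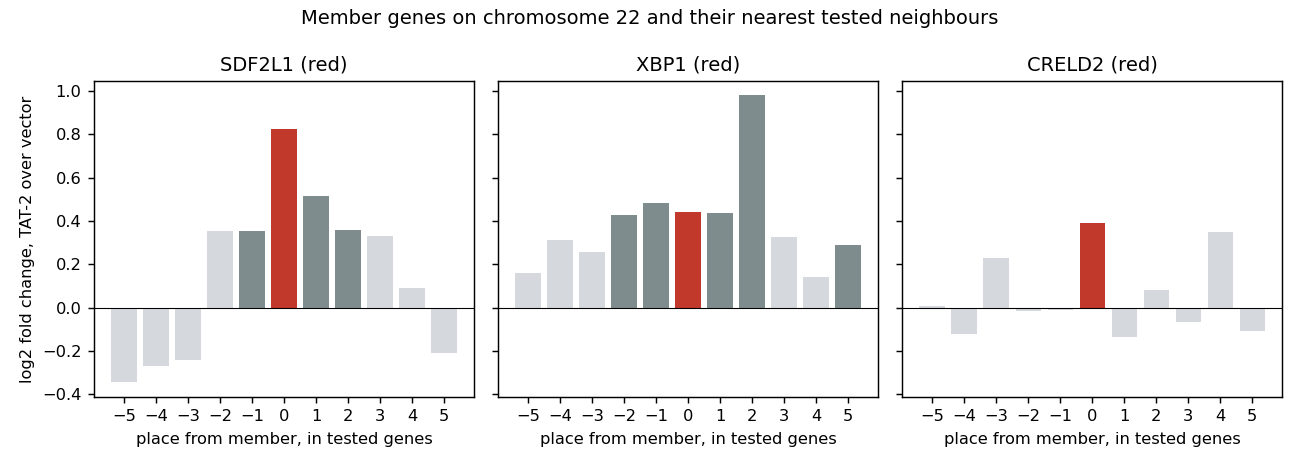
Log2 fold change of TAT-2 over vector for SDF2L1, XBP1 and CRELD2 (red) and the 5 nearest tested genes on either side of each, in chromosome order; dark grey bars were called with the replicate block. All bars around XBP1 are above 0, while those around CRELD2 lie on both sides of 0.

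The members differed in how closely they followed HSPA5 over the 6 arrays. Pearson correlations of log2 values with the brighter HSPA5 probe set were 0.95 for HSP90B1, 0.94 for MANF, 0.83 for DNAJB9 and 0.81 for SDF2L1. They were lower for CRELD2 (0.72), XBP1 (0.57), HERPUD1 (0.55), CALR (0.30) and PDIA4 (-0.585). On the brightest probe sets annotated to HSPA5, HSP90B1, MANF and DNAJB9 alone both replicate 1 arrays lay below all others, and on that of PDIA4 above them. The part of this split in the correlations was not tested. The brightest HSP90B1 probe set, shared with MIR3652, was not used for the correlations and parted replicate 1 the other way. Both its replicate 1 arrays lay above the others, with means of 3752 against 3441. The non-member genes most like HSPA5 were CLTC, USP9X, STK39, SLC38A2 and MAPK8, with r of 0.992 to 0.996. Those most like XBP1 were EIF4EBP2, PEX2, YEATS2, PJA1 and PURA, with r of 0.987 to 0.995. Such values are descriptive, since all genes share the 6 arrays. In likeness to HSPA5 among all tested genes HSP90B1 ranked 59, MANF 97, DNAJB9 646 and SDF2L1 754.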

How the data were processed

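The deposited values are intensities, linear signals of single probe sets that the authors computed with MAS5, named in the submitters' processing notes, with version and other steps not given in the sources used here. The mean of signals between percentiles 2 and 98 was 99.99 on all 6 arrays, and this scaling was left as deposited. Of 54675 probe sets 62 were controls and were left out. By the annotation 41097 probe sets had 1 symbol, 1801 had several and 11777 had none. Symbols were updated by gene identifier for 41043.

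Signals were taken as log2(signal + 16), which understates changes at low signal. Those whose mean over the 6 arrays reached the median (4.96 on the log2 scale, a signal of 15.2) were tested with limma 3.58.1 in R 4.3.3 (eBayes with intensity trend, group as the only term), adjusted by Benjamini-Hochberg over 27307 probe sets at 0.05 with no fold minimum, after a check on simulated data. A gene stood for its brightest tested probe set among those annotated to it alone. With 3 arrays per group, their number limits the precision.

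Arrays of one number deviated together from the means of their groups (r = 0.64, 0.39 and 0.25 for replicates 1, 2 and 3), so the numbers from the titles were also used as a block. Differently numbered replicates 2 and 3 correlated with 0.32 and 0.20, so the values do not show that these 2 numbers pair arrays.

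Members and lists were chosen with earlier results of these data known. Named genes were all members, up to 3 called genes of each list or, failing that, the 2 of smallest p, and the 5 genes most like HSPA5 and XBP1. The neighbour comparison was chosen after the data were seen. Alternatives were the pseudocount, filter, normalization, variance trend, block, a batch factor for replicate 1, averaged probe sets per gene and each array or number left out.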

Additional observations from a re-analysis of the deposited data

How the results depend on the processing

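Limma called 0 member probe sets and 0 pathway list genes. Both counts remained 0 with pseudocounts of 1 and 64, no filter, a laxer or a stricter filter, quantile normalization, centred medians, no variance trend, and the replicate block without the trend. Leaving out arrays singly or by number gave 0 to 1 and 0 to 2, the higher values without replicate 1 of both groups. That setting called 296 of all 27307 probe sets and 196 of all 12151 genes. With the replicate block as pairing the counts were 5 and 8, where 1424 of all 27307 probe sets and 846 of all 12151 genes were called. The block gave 2 and 3 without a filter, 5 and 9 with quantile normalization, and 2 to 4 and 6 to 9 with a number left out. Over all probe sets these settings called 415 of 54613, 1584 of 27307 and 659 to 1393 of 27307. Over all genes they called 270 of 19775, 967 of 12153 and 405 to 802 of 12151. The block gave 7 list genes with probe sets averaged per gene, a setting chosen after seeing the data. Replicate 1 as a batch factor gave 3 and 8, with 1232 of all 27307 probe sets and 747 of all 12151 genes called. The cause of these differences was not tested. With all 6 arrays the 10 member genes kept a positive log2 fold change under every setting. The filter, trend, block and batch factor cannot change these estimates in this balanced design. Only the pseudocounts, quantile normalization, centred medians and averaged probe sets could move them. With arrays left out, DNAJB9 ran from -0.088 to 0.19, HERPUD1 from -0.028 to 0.094 and PDIA4 from -0.070 to 0.26, while the 7 others stayed above 0. HSPA5 ran from 0.049 to 0.23, CALR from 0.12 to 0.32, HSP90B1 from 0.089 to 0.21, MANF from 0.20 to 0.45 and CRELD2 from 0.30 to 0.49. With the block and a number left out, DNAJB9 was at -0.028 without replicate 2 and -0.057 without replicate 3, and HERPUD1 at -0.028 without replicate 2. SDF2L1 ran from 0.66 to 1.04 and XBP1 from 0.38 to 0.51. Dim probe sets limit 1 measurement each of XBP1 and HERPUD1.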

Other observations

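Outside the rule for named genes, and chosen after their values were seen, 3 further genes of the pathway had log2 fold changes above 0.43 without being called by limma in either fit. ATF6, the sensor that is cleaved in the Golgi, was at 0.77 (unadjusted p = 0.204), FKBP2, a prolyl isomerase of the ER, at 0.51 (unadjusted p = 0.131) and DERL3, a component of ER-associated degradation, at 0.44 (unadjusted p = 0.378).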
